A study of Mus musculus with 13 samples.

Results

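The stage by genotype interaction asks, gene by gene, whether the difference between mutant and control embryos was itself different at E11.5 and at E10.5 (embryonic days). It was computed as the log2 difference of mutant over control at E11.5 minus the log2 difference of mutant over control at E10.5, over all 13 libraries of the 13 in the series. The libraries comprised 4 mutant and 3 control samples at E11.5, and 3 mutant and 3 control samples at E10.5. A positive interaction means that mutants stood higher relative to controls at E11.5 than they did at E10.5, whichever of the groups moved.

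Mutant mouse embryos were *Gli3TFlag/+* with Cre and controls were *Gli3TFlag/+* without Cre, so that every embryo carried the *Gli3TFlag* allele, which encodes an epitope-tagged truncated Gli3 that acts as a repressor and is switched on by Cre. The labels give the strain as C57BL/6, whereas the study's methods describe an outbred background. The Cre used recombines in the early foregut, in epithelium as well as mesoderm. Only mutants carried the Cre allele, so effects of that allele and of the Gli3 repressor cannot be told apart here. The tissue was dissected trachea at E11.5 and dissected foregut at E10.5, so stage and tissue cannot be told apart either. By *Xist* above 100 CPM, 2 of 4 E11.5 mutants, 1 of 3 E11.5 controls, 2 of 3 E10.5 mutants and 0 of 3 E10.5 controls were female, so sex was uneven between the groups. In bulk tissue, fewer cells of a type and less RNA per cell cannot be told apart.

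Sonic hedgehog made by the foregut epithelium signals to the surrounding splanchnic mesenchyme through Patched and Smoothened, which shifts the Gli transcription factors between activator and repressor forms. The truncated Gli3 repressor holds target genes down even when the ligand is present. In the developing trachea this pathway is needed for *Foxf1* in the mesenchyme and for the *Sox9*-expressing cells that later form the cartilage rings, and Wnt signals, which R-spondins strengthen at the receptor, are also needed for cartilage. The interval from E10.5 to E11.5 covers the time when the trachea has just separated from the esophagus and cartilage and smooth muscle territories are becoming distinct.

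Each library held between 9646701 and 17988461 estimated counts assigned to genes, and the mitochondrial enzyme gene *Lars2* took 2.32% to 6.84% of them. Levels are given as CPM, counts divided by the library's total after scaling with trimmed mean of M-values (TMM) factors and set to a common library size. *Gli3*, whose reads include those of the transgene, measured 437, 376, 403 and 399 CPM in E11.5 mutants, against 266, 192 and 204 CPM in E11.5 controls. It measured 329.6, 323 and 352 CPM in E10.5 mutants, against 256, 251 and 284 CPM in E10.5 controls. Every mutant stood above every control at its stage, and the interaction of *Gli3* was 0.53 (standard error 0.158, adjusted p = 0.197). *Nkx2-1*, the transcription factor that marks respiratory endoderm, was present in all groups at 29.6 to 53.8 CPM in E11.5 mutants, 24.6 to 40.7 CPM in E11.5 controls, 10.99 to 22.6 CPM in E10.5 mutants and 11.9 to 20.3 CPM in E10.5 controls.

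Across 16132 genes tested with edgeR's quasi-likelihood test and Benjamini-Hochberg adjustment, the interaction was called higher for 4 genes (0.0248%) and lower for 0 genes (0%) at an adjusted p of at most 0.05. The 4 were *Pkdcc*, *Itga9*, *Grem1* and *Dock5*. Without adjustment, 1075 genes (6.66%) had a higher and 1219 genes (7.56%) a lower interaction at p under 0.05, and the smallest adjusted p of any gene with a lower interaction was 0.0663. Within the stages, mutants were called higher at E11.5 for 479 genes (2.97%) and lower for 215 genes (1.33%), and at E10.5 higher for 77 genes (0.477%) and lower for 28 genes (0.174%). The median interaction over all genes was -0.03, with quartiles at -0.38 and 0.20, and 46.4% of genes lay above 0. The median standard error of a gene's interaction was 0.266 on the log2 scale, against 0.183 for the E11.5 difference and 0.193 for the E10.5 difference from which it is made, and the smallest interaction called was 1.06.

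These counts turned on single libraries. Without E11.5 control replicate 1, 459 genes were called higher and 174 lower in the interaction, and all 4 genes above were kept. Without E11.5 control replicate 2 no gene was called in either direction, with 1649 genes at an unadjusted p under 0.05. Without E10.5 mutant replicate 3, which carried far more neuronal RNA than any other library, 7 genes were called higher and 4 lower. Calls numbered 2 without E10.5 control replicate 2, without E10.5 control replicate 3 or without E11.5 mutant replicate 2, and 1 without E10.5 mutant replicate 1, without E11.5 mutant replicate 1 or without E11.5 mutant replicate 4, all of them higher. The count of 0 lower calls also differed between tools: DESeq2 called 117 genes lower, edgeR's likelihood ratio test 116 and limma-voom 0.

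The stage counts moved with single libraries as well. Genes called higher in mutants at E11.5 numbered 1329, 128 and 99 without E11.5 control replicates 1, 2 and 3, and 303 without E11.5 mutant replicate 2. Genes called lower at E11.5 numbered 706, 35 and 36 without those 3 controls, and 122 and 127 without E11.5 mutant replicates 1 and 2. Genes called higher at E10.5 numbered 2, 7 and 29 without E10.5 control replicates 1, 2 and 3, 48 without E10.5 mutant replicate 2 and 51 without E11.5 mutant replicate 1. Genes called lower at E10.5 numbered 2, 8 and 7 without those 3 controls, 12 and 16 without E10.5 mutant replicates 1 and 2, and 49 without E11.5 control replicate 1. Of the 40 genes named below that were called at E11.5, 30 were called in all 13 fits with 1 library left out, and of the 15 called at E10.5, 3 were (*Foxf1*, *Rspo2* and *Gal*). Each kept its direction in all of those fits.

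*Pkdcc*, which encodes a secreted tyrosine kinase that phosphorylates extracellular proteins and takes part in skeletal growth, was the gene with the smallest interaction p and the only called gene whose difference was called in opposite directions at the stages. It lies on chromosome 17 at 83215292 to 83225070 of GRCm38, on the plus strand. *Pkdcc* measured 25.7, 28.2, 24.96 and 30.99 CPM in E11.5 mutants, against 18.2, 17.8 and 17.5 CPM in E11.5 controls. It measured 21.8, 16.4 and 19.4 CPM in E10.5 mutants, against 37.1, 34.9 and 30.04 CPM in E10.5 controls. Mutants therefore stood above controls in every library at E11.5 and below controls in every library at E10.5, with no overlap at either stage. *Pkdcc* rose in mutants at E11.5 by a log2 difference of 0.62 (standard error 0.123, adjusted p = 0.0140) and fell at E10.5 by 0.82 (standard error 0.128, adjusted p = 0.0126), giving an interaction of 1.45 (standard error 0.178, adjusted p = 0.0181). The E11.5 call was lost without E11.5 control replicate 2 or 3, with an adjusted p of up to 0.0767, and the E10.5 call without E10.5 control replicate 1 or 2, with one of up to 0.0775.

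*Itga9* encodes the integrin alpha 9 subunit, part of a receptor for extracellular matrix proteins such as tenascin C. It lies on chromosome 9 at 118606690 to 118901003, on the plus strand. *Itga9* measured 162, 145, 156 and 171 CPM in E11.5 mutants, against 75.1, 74.8 and 82.5 CPM in E11.5 controls. It measured 106, 104 and 112 CPM in E10.5 mutants, against 97.9, 103 and 127 CPM in E10.5 controls. The groups overlapped at E10.5, and the E11.5 mutants lay above and the E11.5 controls below every E10.5 library. *Itga9* rose at E11.5 by 1.03 (standard error 0.0978, adjusted p = 0.000192), whereas its E10.5 difference was -0.03 (standard error 0.101, adjusted p = 0.940), and the interaction was 1.06 (standard error 0.140, adjusted p = 0.0205).

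*Grem1* encodes Gremlin 1, a secreted protein that binds and blocks bone morphogenetic proteins. It lies on chromosome 2 at 113746164 to 113758646, on the minus strand. *Grem1* measured 7.96, 6.82, 4.85 and 5.48 CPM in E11.5 mutants, against 1.04, 0.282 and 0.497 CPM in E11.5 controls. It measured 7.87, 7.69 and 7.05 CPM in E10.5 mutants, against 5.51, 6.26 and 8.82 CPM in E10.5 controls. The E11.5 controls stood apart below the other 3 groups, which overlapped. The E11.5 difference was 3.38 (standard error 0.358, adjusted p = 0.000305) and the E10.5 difference 0.13 (standard error 0.291, adjusted p = 0.900), for an interaction of 3.25 (standard error 0.462, adjusted p = 0.0307), the largest of the 4 on the log2 scale. That size rests on E11.5 controls at only 0.282 to 1.04 CPM, and it ranged from 1.95 to 3.85 over all fits that tested the gene.

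*Dock5* encodes a guanine nucleotide exchange factor that activates the small GTPase Rac. It lies on chromosome 14 at 67752135 to 67933442, on the minus strand. *Dock5* measured 73.9, 58.4, 48.04 and 62.5 CPM in E11.5 mutants, against 16.5, 13.2 and 21.03 CPM in E11.5 controls. It measured 16.4, 14.9 and 22.4 CPM in E10.5 mutants, against 16.8, 18.1 and 17.8 CPM in E10.5 controls. Here it was the E11.5 mutants that stood apart, and the other 3 groups overlapped. The difference was 1.84 at E11.5 (standard error 0.186, adjusted p = 0.000282) and 0.03 at E10.5 (standard error 0.191, adjusted p = 0.971), and the interaction was 1.81 (standard error 0.264, adjusted p = 0.0307).

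**Figure D1:**
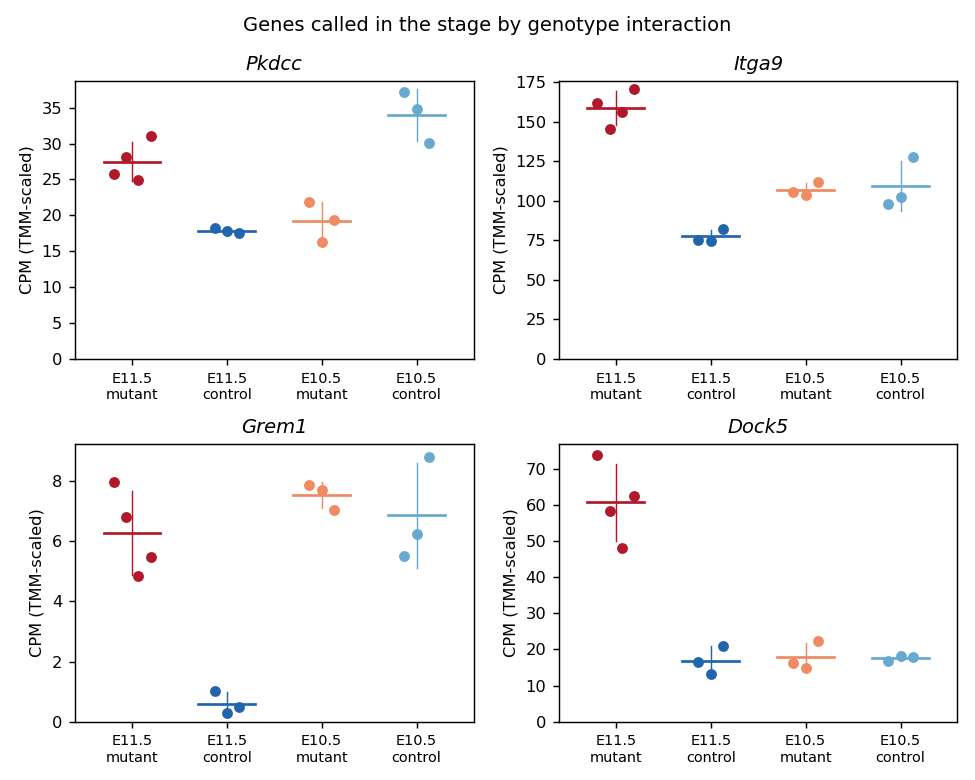
CPM of *Pkdcc*, *Itga9*, *Grem1* and *Dock5* in every library, with dots for libraries, a horizontal bar for the group mean and a vertical line for its SD, the groups running E11.5 mutant, E11.5 control, E10.5 mutant and E10.5 control. *Pkdcc* mutants sit above controls at E11.5 and below them at E10.5, while for *Dock5* the E11.5 mutants and for *Grem1* the E11.5 controls stand apart, and for *Itga9* the E11.5 mutants lie above and the E11.5 controls below both E10.5 groups.

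The 4 calls were not equally stable. Without E11.5 control replicate 2, all 4 were lost, and the adjusted p was 0.0897 for *Pkdcc* and 0.0971 for *Itga9*. *Pkdcc* was called in 12 of the 13 fits with 1 library left out, *Itga9* in 8, *Grem1* in 4 and *Dock5* in 4. All 4 calls, that of *Pkdcc* included, were also lost with the replicate number as a block, though the labels do not pair samples by these numbers. The *Itga9* call was also lost without E10.5 mutant replicate 1 (adjusted p = 0.0813) or 2 (adjusted p = 0.0572), and without E11.5 mutant replicate 1 (adjusted p = 0.0733) or 4 (adjusted p = 0.0565). *Grem1* was called without E10.5 control replicate 1, E10.5 mutant replicate 3, E11.5 control replicate 1 or E11.5 mutant replicate 3, and *Dock5* without E10.5 mutant replicate 3, E11.5 control replicate 1, E11.5 control replicate 3 or E11.5 mutant replicate 3. With limma-voom the calls of *Grem1* (adjusted p = 0.0948) and *Dock5* (adjusted p = 0.0623) were lost, and with voom weights by stage that of *Grem1* (adjusted p = 0.103). On log2(TPM + 1) *Itga9* and *Dock5* were lost (adjusted p = 0.0691 for each), as on log2(TPM + 0.1) (adjusted p = 0.111 for each), and with sex as a covariate *Grem1* was (adjusted p = 0.0523). Without both mutant replicates 2, *Itga9* (adjusted p = 0.0570), *Grem1* (adjusted p = 0.107) and *Dock5* (adjusted p = 0.107) were lost, as they were with the level of the record-named transcripts described below as a covariate (adjusted p = 0.146 for *Itga9*, 0.159 for *Grem1* and 0.238 for *Dock5*). The level of those transcripts did not overlap between E11.5 mutants and controls, so a fit with it cannot separate it from genotype at E11.5. *Grem1* was not tested where at least 10 counts were asked of every library. Over all fits that tested it, the interaction stayed between 1.299 and 1.76 for *Pkdcc*, 0.89 and 1.14 for *Itga9*, 1.95 and 3.85 for *Grem1*, and 1.23 and 2.01 for *Dock5*. In GENCODE M21, none of the 4 shares exon sequence with another gene on either strand, which matters because the library kit does not mark strand.

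**Figure D2:**
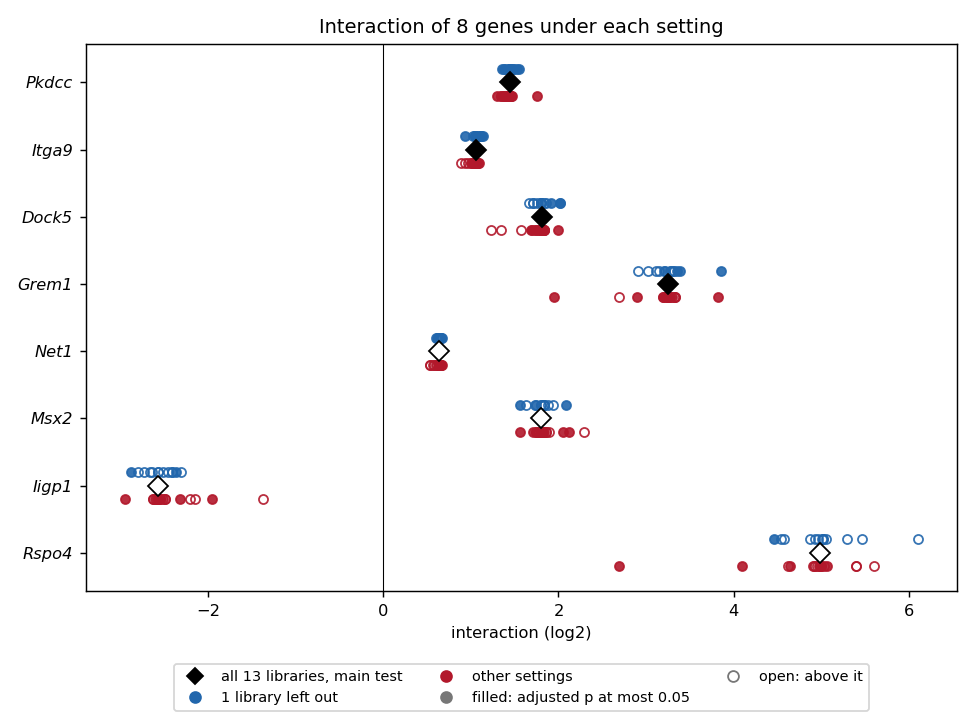
Interaction (log2) of *Pkdcc*, *Itga9*, *Dock5*, *Grem1*, *Net1*, *Msx2*, *Iigp1* and *Rspo4* under every setting, with filled points for an adjusted p of at most 0.05, open points for a larger one and a diamond for all 13 libraries. No gene changes sign in any fit that tested it, and *Pkdcc* carries the most filled points.

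RefSeq promoter windows were held for 3 of the 4 called genes (*Grem1*, *Itga9* and *Pkdcc*), and the 250 bases before the annotated start are shown for *Grem1* and *Pkdcc*, which represent a gene low in 1 group and a gene that turned round between stages. Both are from GRCm38.p6 and read 5′ to 3′ along the gene, *Grem1* at chr2:113758649-113758898 on the minus strand and *Pkdcc* at chr17:83215033-83215282 on the plus strand.
Grem1: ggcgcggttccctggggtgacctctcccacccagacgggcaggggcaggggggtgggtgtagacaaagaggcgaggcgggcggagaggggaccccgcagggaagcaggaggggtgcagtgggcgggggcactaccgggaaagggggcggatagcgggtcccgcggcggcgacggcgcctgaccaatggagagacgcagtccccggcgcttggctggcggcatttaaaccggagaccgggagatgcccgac
Pkdcc: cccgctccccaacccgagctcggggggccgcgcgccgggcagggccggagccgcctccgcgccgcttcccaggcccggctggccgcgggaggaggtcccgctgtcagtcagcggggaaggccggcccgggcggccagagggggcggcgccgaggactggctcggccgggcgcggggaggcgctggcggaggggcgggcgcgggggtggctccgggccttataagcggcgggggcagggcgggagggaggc
The letters TGGGTGGTC, a binding motif of Gli factors, were searched on both strands with at most 1 mismatch in the window from 250 bases before to 50 after the start. None of the 3 windows held a match, and 2214 of all 32851 windows in the table (6.74%) did. Since these windows are short, this says only that the letters are not in them, and in *Itga9* the window lies inside the gene body as GENCODE draws it. No letters are in capitals because no match was found.

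The genes nearest to the threshold without passing it differed in which group or stage set them apart. *Net1*, a guanine nucleotide exchange factor, measured 219, 197, 224 and 208 CPM in E11.5 mutants, against 143, 149 and 149 CPM in E11.5 controls. It measured 109.9, 103 and 106 CPM in E10.5 mutants, against 112, 115 and 116 CPM in E10.5 controls. Mutants lay above controls at E11.5 and below them at E10.5 without overlap at either stage, and the interaction was 0.64 (standard error 0.101, adjusted p = 0.0630). Only the E11.5 difference of *Net1*, 0.53, was called (adjusted p = 0.00138), the E10.5 difference being -0.11 (adjusted p = 0.564).

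*Msx2*, a homeobox transcription factor of limb, skull and tooth mesenchyme that responds to bone morphogenetic proteins, measured 66.1, 53.7, 54.3 and 57.2 CPM in E11.5 mutants, against 8.3001, 9.86 and 8.88 CPM in E11.5 controls. It measured 15.2, 19.97 and 9.35 CPM in E10.5 mutants, against 6.57, 9.95 and 7.66 CPM in E10.5 controls. *Msx2* rose at E11.5 by 2.68 (adjusted p = 6.55e-05), its E10.5 difference was 0.88 (adjusted p = 0.0956), and the interaction was 1.80 (standard error 0.308, adjusted p = 0.0751). *Rspo4*, an R-spondin that strengthens Wnt signaling at the receptor, measured 13.3, 11.8, 11.98 and 14.3 CPM in E11.5 mutants, against 0, 0.141 and 0.355 CPM in E11.5 controls. It measured 2.22, 0.452 and 1.55 CPM in E10.5 mutants, against 0.592, 0.9498 and 0.317 CPM in E10.5 controls. The E11.5 mutants stood apart above the other groups, with 653 counts summed over E11.5 mutants and 7 over E11.5 controls, a depth-scaled ratio of 73.9 with an exact 95% interval of 35.7 to 184.5 that covers counting error only, against 72 and 33 counts at E10.5, a ratio of 2.34 (1.53 to 3.65). Its interaction was 4.98 (standard error 0.865, adjusted p = 0.0802).

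*Pitx1*, a homeobox gene of hindlimb and jaw, measured 2.17, 3.56, 1.13 and 1.57 CPM in E11.5 mutants, against 0.0798, 0 and 0 CPM in E11.5 controls. It measured 2.57, 4.33 and 7.74 CPM in E10.5 mutants, against 3.85, 6.48 and 4.65 CPM in E10.5 controls. As with *Grem1*, the E11.5 controls were the group that stood apart, holding 1 count against 109 in E11.5 mutants, a depth-scaled ratio of 86.4 (exact counting interval 15.2 to 3442), whereas the E10.5 ratio was 0.981 (0.822 to 1.17). The fitted interaction of *Pitx1* (6.04, adjusted p = 0.0751) depends on the prior count, and exons of another gene on each strand overlap this gene.

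*Epha4*, a receptor for ephrins that guides cell sorting and axons, measured 161, 187, 155 and 177 CPM in E11.5 mutants, against 165, 121 and 117 CPM in E11.5 controls. It measured 94.8, 82.5 and 98.3 CPM in E10.5 mutants, against 148, 136 and 139 CPM in E10.5 controls. *Epha4* fell at E10.5 by 0.62 (adjusted p = 0.0411) while its E11.5 groups overlapped, and the interaction was 0.96 (standard error 0.171, adjusted p = 0.0933). That E10.5 call was kept in 6 of the 13 fits with 1 library left out, being lost without any of the E10.5 controls, without E10.5 mutant replicate 1 or 2, or without E11.5 mutant replicate 1 or 3, with an adjusted p of up to 0.175. Of the other genes that followed on the higher side, *Dock9*, a nucleotide exchange factor for Cdc42, had an interaction of 0.93 (standard error 0.171, adjusted p = 0.103). *Etl4*, a gene expressed in notochord, had one of 0.68 (standard error 0.129, adjusted p = 0.104). *Stk39*, a kinase that regulates ion transport, had one of 0.54 (standard error 0.103, adjusted p = 0.104). All of these 3 rose at E11.5 and had overlapping groups at E10.5.

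On the lower side, *Iigp1*, an interferon-inducible GTPase of cell-autonomous immunity, measured 12.8, 7.26, 10.9 and 12.3 CPM in E11.5 mutants, against 58.7, 45.5 and 34.7 CPM in E11.5 controls. It measured 5.77, 6.72 and 2.64 CPM in E10.5 mutants, against 4.74, 2.85 and 3.33 CPM in E10.5 controls. *Iigp1* fell at E11.5 by 2.10 (adjusted p = 0.00142), and its interaction was -2.57 (standard error 0.433, adjusted p = 0.0751). It was the only one of 10 tested genes of an interferon response list with an unadjusted p under 0.05, and the median interaction of that list was -0.03.

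*Amph*, which encodes amphiphysin, a protein of synaptic vesicle uptake, measured 4.25, 3.05, 5.11 and 3.36 CPM in E11.5 mutants, against 6.94, 8.097 and 5.76 CPM in E11.5 controls. It measured 8.05, 9.76 and 11.2 CPM in E10.5 mutants, against 5.86, 4.13 and 4.75 CPM in E10.5 controls. The groups did not overlap and stood in opposite order at the stages, yet neither difference was called on its own (E11.5 -0.81, adjusted p = 0.0561; E10.5 0.97, adjusted p = 0.0785), and the interaction was -1.78 (standard error 0.322, adjusted p = 0.0986). *Slc25a27*, a mitochondrial carrier of brain, had the same order of groups, with an interaction of -1.44 (standard error 0.266, adjusted p = 0.104). *Lhfpl1*, an X-linked membrane protein gene, did too at a low level, with means of 1.17 ± 0.149 CPM (SD, n = 4) in E11.5 mutants and 2.43 ± 0.109 CPM (n = 3) in E11.5 controls, 1.99 ± 0.688 CPM (n = 3) in E10.5 mutants and 0.782 ± 0.0520 CPM (n = 3) in E10.5 controls (interaction -2.39, standard error 0.447, adjusted p = 0.104). *Ntng2*, which encodes the neuronal surface protein netrin G2, had an interaction of -3.01 (standard error 0.569, adjusted p = 0.104), and its highest library was E10.5 mutant replicate 3 with 10.4 CPM. *Duxbl2* (-1.74, adjusted p = 0.112) and *Tmem254b* (-0.87, adjusted p = 0.112) belong to families of near-identical copies, so that their estimated counts are uncertain.

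**Figure D3:**
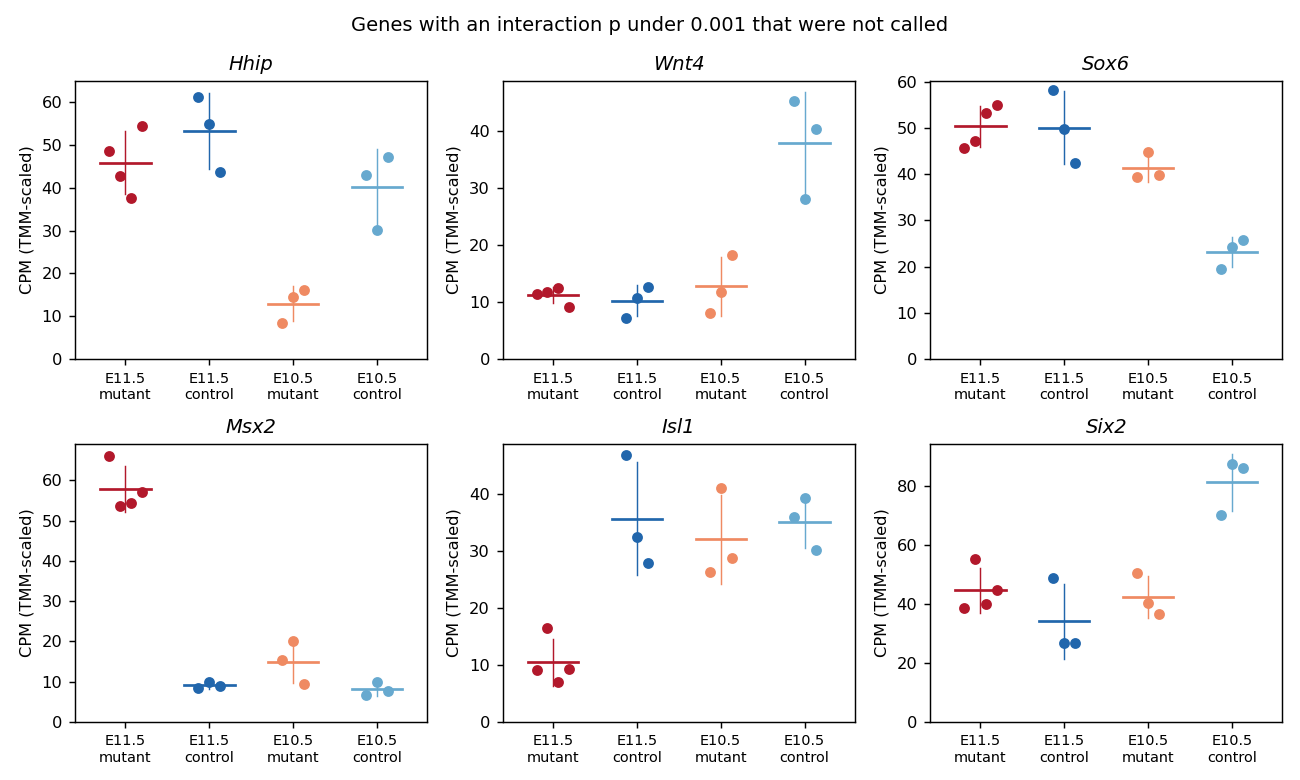
CPM of *Hhip*, *Wnt4*, *Sox6*, *Msx2*, *Isl1* and *Six2* in every library, drawn as dots with a bar for the group mean and a line for the SD. *Hhip*, *Wnt4*, *Sox6* and *Six2* separate mutants from controls at E10.5 and not at E11.5, and *Isl1* and *Msx2* separate them at E11.5 only.

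Hedgehog targets leaned upward in the interaction. All 8 tested targets (among them *Ptch1*, *Gli1*, *Hhip*, *Foxf1*, *Foxf2*, *Foxl1* and *Bmp4*) had an interaction above 0, with a median of 0.32 against -0.03 over all genes tested, but 0 of the 8 were called and 2 had an unadjusted p under 0.05. For this and the lists below, the shares over all genes at an unadjusted p under 0.05 were 6.66% higher and 7.56% lower. *Hhip*, whose protein sits at the cell surface and sequesters hedgehog ligands, measured 48.7, 42.7, 37.7 and 54.6 CPM in E11.5 mutants, against 61.4, 55.1 and 43.8 CPM in E11.5 controls. It measured 8.46, 14.4 and 16.1 CPM in E10.5 mutants, against 43.1, 30.2 and 47.3 CPM in E10.5 controls. The E11.5 groups overlapped, and the E10.5 mutants were the group that stood apart. *Hhip* fell at E10.5 by 1.63 (standard error 0.230, adjusted p = 0.0101), a call lost without E10.5 control replicate 1 (adjusted p = 0.0738), whereas its E11.5 difference was -0.22 (standard error 0.204, adjusted p = 0.552), and the interaction was 1.41 (standard error 0.307, adjusted p = 0.141).

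*Foxf1*, the forkhead factor of splanchnic mesenchyme, fell at both stages. It measured 31.6, 44.5, 30.7 and 41.5 CPM in E11.5 mutants, against 74.2, 69.9 and 68.3 CPM in E11.5 controls. It measured 41.5, 45.8 and 58.9 CPM in E10.5 mutants, against 153, 112 and 152 CPM in E10.5 controls. The fall of *Foxf1* was 0.94 at E11.5 (adjusted p = 0.00637) and 1.51 at E10.5 (adjusted p = 0.00301), and the difference between these, an interaction of 0.58 (standard error 0.228, adjusted p = 0.276), was not called.

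*Ptch1*, the hedgehog receptor and a pathway target, measured 218, 329.7, 207 and 249 CPM in E11.5 mutants, against 502, 209 and 240.2 CPM in E11.5 controls. It measured 443, 472 and 394 CPM in E10.5 mutants, against 647, 745 and 699 CPM in E10.5 controls. *Ptch1* groups overlapped at E11.5, where replicate 1 of the controls and replicate 2 of the mutants were high, and did not overlap at E10.5 (interaction 0.34, standard error 0.357, adjusted p = 0.702). *Foxf2*, a relative of *Foxf1*, had its high E11.5 libraries in the same places, with 4.33, 14.4, 1.95 and 3.92 CPM in E11.5 mutants, against 34.3, 9.22 and 9.59 CPM in E11.5 controls. It measured 13.8, 12.2 and 16.5 CPM in E10.5 mutants, against 46.1, 49.3 and 54.2 CPM in E10.5 controls, and its interaction was 0.31 (standard error 0.772, adjusted p = 0.885). *Trp63*, a marker of esophageal and other basal epithelium, was also uneven within the E11.5 groups, at 5.64, 52.5, 8.83 and 7.61 CPM in mutants, against 19.4, 0.211 and 0.568 CPM in controls. The part of such tissue in these values was not tested. *Gli1*, a transcriptional target often used to read pathway activity, measured 25.4, 27.5, 32.3 and 25.8 CPM in E11.5 mutants, against 30.4, 45.6 and 35.95 CPM in E11.5 controls. It measured 36.6, 34.4 and 33.04 CPM in E10.5 mutants, against 48.5, 49.2 and 42.6 CPM in E10.5 controls. Its differences were -0.43 at either stage, neither called, with an interaction of 0.01 (standard error 0.190, adjusted p = 0.992) whose sign turns under several settings, as upper-quartile factors show (-0.05).

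Of 12 tested hedgehog ligands, receptors and transducers, 0 were called, and 4 had a higher and 1 a lower interaction at an unadjusted p under 0.05 (median 0.21). *Cdon*, a co-receptor for hedgehog ligands, rose at E11.5 by 1.02 (adjusted p = 0.000594) and at E10.5 by 0.70 (adjusted p = 0.0241), with an interaction of 0.32 (standard error 0.170, adjusted p = 0.416). The E10.5 call of *Cdon* was lost without E10.5 control replicate 1 or 2 or E10.5 mutant replicate 1 or 2 (adjusted p up to 0.166). The list's lower member was *Boc*, another co-receptor, at -0.46 (standard error 0.207, adjusted p = 0.334).

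Among 11 R-spondins and their receptors, 0 were called, 4 had a higher and 1 a lower interaction at an unadjusted p under 0.05, and the median was 0.30. *Rspo2*, which marks ventral tracheal mesenchyme, fell in mutants at both stages. It measured 6.65, 4.79, 4.79 and 7.83 CPM in E11.5 mutants, against 35.4, 39.3 and 40.7 CPM in E11.5 controls. It measured 6.36, 4.72 and 7.17 CPM in E10.5 mutants, against 26.4, 16.2 and 25.2 CPM in E10.5 controls. The mutants held a common level at the stages while the controls were higher at E11.5. The fall of *Rspo2* was 2.69 at E11.5 (adjusted p = 6.45e-05) and 1.89 at E10.5 (adjusted p = 0.00314), and the interaction was -0.80 (standard error 0.304, adjusted p = 0.264). *Rspo2* and *Rspo4* thus had interactions of opposite sign. *Lrp6*, a Wnt co-receptor, had an interaction of 0.52 (standard error 0.155, adjusted p = 0.197).

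Of 20 genes for Wnt ligands and their secretion, 11 were tested, 0 were called, and 2 had a higher interaction at an unadjusted p under 0.05 (median 0.37). *Wnt4*, a ligand of foregut mesenchyme, measured 11.4, 11.8, 12.5 and 9.17 CPM in E11.5 mutants, against 7.26, 10.8 and 12.6 CPM in E11.5 controls. It measured 8.11, 11.8 and 18.3 CPM in E10.5 mutants, against 45.3, 27.99 and 40.3 CPM in E10.5 controls. The E10.5 controls stood apart, and the other groups overlapped. *Wnt4* fell at E10.5 by 1.57 (adjusted p = 0.0205), a call lost without E10.5 control replicate 1 or 3 or E10.5 mutant replicate 2 (adjusted p up to 0.122), its E11.5 difference was 0.14 (adjusted p = 0.787), and the interaction was 1.71 (standard error 0.376, adjusted p = 0.141). *Wnt11*, a ligand of the non-canonical branch, measured 3.25, 3.05, 2.58 and 2.57 CPM in E11.5 mutants, against 4.95, 6.48 and 6.18 CPM in E11.5 controls, and 0.991, 1.81 and 1.72 CPM in E10.5 mutants, against 1.599, 1.45 and 2.904 CPM in E10.5 controls (interaction -0.63, standard error 0.432, adjusted p = 0.522).

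Of 12 Wnt feedback and response genes, 0 were called, and 3 had a higher and 1 a lower interaction at an unadjusted p under 0.05 (median 0.31). *Notum*, a secreted enzyme that inactivates Wnt ligands, measured 1.16, 1.67, 1.07 and 0.895 CPM in E11.5 mutants, against 1.12, 4.01 and 2.34 CPM in E11.5 controls. It measured 0.641, 0.194 and 0.975 CPM in E10.5 mutants, against 0.296, 0 and 0.422 CPM in E10.5 controls. At these low levels the groups overlapped at both stages, and the interaction of *Notum* was -2.35 (standard error 1.002, adjusted p = 0.307). *Nkd1*, an intracellular feedback inhibitor, rose at E11.5 by 0.76 (adjusted p = 0.00533) against an E10.5 difference of 0.08 (adjusted p = 0.864), with an interaction of 0.69 (standard error 0.180, adjusted p = 0.172). *Ccnd1*, which encodes cyclin D1, had an interaction of 0.53 (standard error 0.134, adjusted p = 0.169). Of 11 secreted Wnt antagonists, 0 were called, 1 was higher and 1 lower at an unadjusted p under 0.05, and the median was -0.27.

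Cartilage genes leaned the other way. Of 17 listed, 11 were tested, 4 had a value above 0 and 7 below, 0 were called, and 6 had a lower and 0 a higher interaction at an unadjusted p under 0.05, with a median of -0.83 that stayed below 0 under every setting tried (-1.01 to -0.23). *Sox9*, the transcription factor that specifies chondrocytes, measured 65.3, 48.8, 42.9 and 62.2 CPM in E11.5 mutants, against 123, 148 and 130.2 CPM in E11.5 controls. It measured 44.3, 86.2 and 45.5 CPM in E10.5 mutants, against 69.5, 82.1 and 77.1 CPM in E10.5 controls, so that the groups were apart at E11.5 and overlapped at E10.5 through mutant replicate 2. *Sox9* fell at E11.5 by 1.29 (adjusted p = 0.00511), its E10.5 difference was -0.38 (adjusted p = 0.477), and the interaction was -0.91 (standard error 0.301, adjusted p = 0.218).

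*Sox6*, which acts with *Sox9* in cartilage, measured 45.8, 47.3, 53.3 and 55.04 CPM in E11.5 mutants, against 58.3, 49.7 and 42.4 CPM in E11.5 controls. It measured 39.4, 44.9 and 39.7 CPM in E10.5 mutants, against 19.5, 24.3 and 25.8 CPM in E10.5 controls. Unlike *Sox9*, it was set apart by the low E10.5 controls. *Sox6* rose at E10.5 by 0.83 (adjusted p = 0.0143), a call lost without E10.5 control replicate 1 or 2 or E10.5 mutant replicate 2 (adjusted p up to 0.106), its E11.5 difference was 0.01 (adjusted p = 0.982), and the interaction was -0.83 (standard error 0.182, adjusted p = 0.141).

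*Col9a2*, a chain of the cartilage collagen IX, measured 1.78, 1.31, 1.58 and 1.902 CPM in E11.5 mutants, against 3.43, 6.76 and 3.198 CPM in E11.5 controls. It measured 2.86, 4.72 and 2.58 CPM in E10.5 mutants, against 1.42, 2.35 and 0.898 CPM in E10.5 controls. The order of the groups turned round between stages without overlap, with an interaction of -2.57 (standard error 0.546, adjusted p = 0.141). Its E11.5 fall of 1.45 (adjusted p = 0.0437) was called in 5 of the 13 fits with 1 library left out and reached an adjusted p of 0.226. It was lost without E10.5 control replicate 1, E10.5 mutant replicate 1, E11.5 control replicate 2 or 3, or any of the E11.5 mutants. *Col9a3*, another chain of collagen IX, had an interaction of -2.35 (standard error 0.643, adjusted p = 0.180). The summed level of the cartilage list overlapped between all groups, at 368 to 409 CPM in E11.5 mutants, 400 to 543 CPM in E11.5 controls, 385 to 589 CPM in E10.5 mutants and 400 to 496 CPM in E10.5 controls. Its mean log2 CPM, which weighs members equally, did not overlap at E11.5, at 3.47 to 3.72 in mutants and 3.90 to 4.27 in controls. At E10.5 that mean overlapped, at 3.72 to 4.19 in mutants and 3.58 to 3.86 in controls. The median difference of the list was -0.23 at E11.5 and 0.57 at E10.5.

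Homeobox genes of limb and face were mostly above 0 in the interaction. Of 27 listed, 21 were tested, 16 had a value above 0, 4 had a higher and 0 a lower interaction at an unadjusted p under 0.05, 0 were called, and the median was 0.53. *Alx4*, a paired-type factor of face and limb mesenchyme, rose at both stages, by 2.40 at E11.5 (adjusted p = 0.000266) and by 1.77 at E10.5 (adjusted p = 0.0101), a call lost without E10.5 control replicate 1 (adjusted p = 0.0758), and its interaction was 0.63 (standard error 0.341, adjusted p = 0.421). *Six2*, a factor of progenitor cells in kidney and face, measured 38.5, 55.2, 39.97 and 44.7 CPM in E11.5 mutants, against 48.6, 26.8 and 26.6 CPM in E11.5 controls. It measured 50.4, 40.1 and 36.4 CPM in E10.5 mutants, against 70.2, 87.5 and 86.1 CPM in E10.5 controls, so that its groups overlapped at E11.5 through control replicate 1 and were apart at E10.5 (interaction 1.33, standard error 0.294, adjusted p = 0.141). *Shox2*, a factor of limb and sinus node, had an interaction of 1.44 (standard error 0.532, adjusted p = 0.255). Of 17 tested Hox genes 1 had a higher interaction at an unadjusted p under 0.05 and 0 were called, with a median of 0.09.

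Of 22 tested transcription factors of foregut mesenchyme, 0 were called, 5 had a higher and 2 a lower interaction at an unadjusted p under 0.05, and the median was -0.13. *Isl1*, a LIM homeobox factor of pharyngeal and foregut mesoderm, measured 9.05, 16.4, 6.998 and 9.17 CPM in E11.5 mutants, against 46.8, 32.4 and 27.8 CPM in E11.5 controls. It measured 26.2, 40.98 and 28.7 CPM in E10.5 mutants, against 35.9, 39.2 and 30.1 CPM in E10.5 controls. The E11.5 mutants stood apart below the other 3 groups. *Isl1* fell at E11.5 by 1.77 (adjusted p = 0.00298), its E10.5 difference was -0.13 (adjusted p = 0.890), and the interaction was -1.64 (standard error 0.372, adjusted p = 0.142). *Prrx1*, a factor of limb and face mesenchyme, measured 152, 193, 143 and 162 CPM in E11.5 mutants, against 109.98, 106 and 92.1 CPM in E11.5 controls. It measured 155, 178 and 140.3 CPM in E10.5 mutants, against 143, 176 and 185 CPM in E10.5 controls (interaction 0.75, standard error 0.180, adjusted p = 0.161). The E11.5 difference of *Prrx1*, 0.66 (adjusted p = 0.0114), was called, but not without E11.5 control replicate 2 or 3 (adjusted p up to 0.0761). The basic helix-loop-helix factor *Twist1* rose at both stages, by 1.66 at E11.5 (adjusted p = 0.000312) and by 0.94 at E10.5 (adjusted p = 0.0337), with an interaction of 0.73 (standard error 0.249, adjusted p = 0.228). Its E10.5 call was lost without any E10.5 control or E10.5 mutant replicate 1 (adjusted p up to 0.166). Its relative *Twist2* fell at E10.5 by 0.93 (adjusted p = 0.0169), a call lost without any one of the E10.5 controls (adjusted p up to 0.0738), with an E11.5 difference of -0.14 (adjusted p = 0.599) and an interaction of 0.79 (standard error 0.211, adjusted p = 0.175).

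In other signaling lists, 1 of 24 tested bone morphogenetic protein and transforming growth factor beta genes, *Grem1*, was called and also the only one with an unadjusted p under 0.05, and the median was 0.11. Of 14 tested retinoic acid genes 1, *Cyp26b1*, had a higher interaction at an unadjusted p under 0.05 (median 0.29). *Cyp26b1*, which degrades retinoic acid, measured 16.9, 17.9, 14.2 and 21.5 CPM in E11.5 mutants, against 9.497, 10.1 and 6.96 CPM in E11.5 controls. It measured 14.3, 15.6 and 13.1 CPM in E10.5 mutants, against 15.7, 14.3 and 18.3 CPM in E10.5 controls. The low E11.5 controls set it apart, with an E11.5 rise of 0.99 (adjusted p = 0.00760, or 0.0511 without E11.5 control replicate 3) and an interaction of 1.15 (standard error 0.242, adjusted p = 0.141). *Bmper*, which modulates bone morphogenetic proteins outside the cell and was singled out after its values were seen, measured 40.9, 17.1, 30.2 and 30.5 CPM in E11.5 mutants, against 34.7, 45.5 and 38.7 CPM in E11.5 controls. It measured 9.68, 9.76 and 9.64 CPM in E10.5 mutants, against 3.61, 3.24 and 5.596 CPM in E10.5 controls, and had an interaction of -1.64 (standard error 0.356, adjusted p = 0.141). Of 14 tested fibroblast growth factor genes 2 had a lower and 0 a higher interaction at an unadjusted p under 0.05 (median -0.36), and of 15 tested Notch genes 2 had a higher and 0 a lower one (median 0.10), with 0 called in either list.

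**Figure D4:**
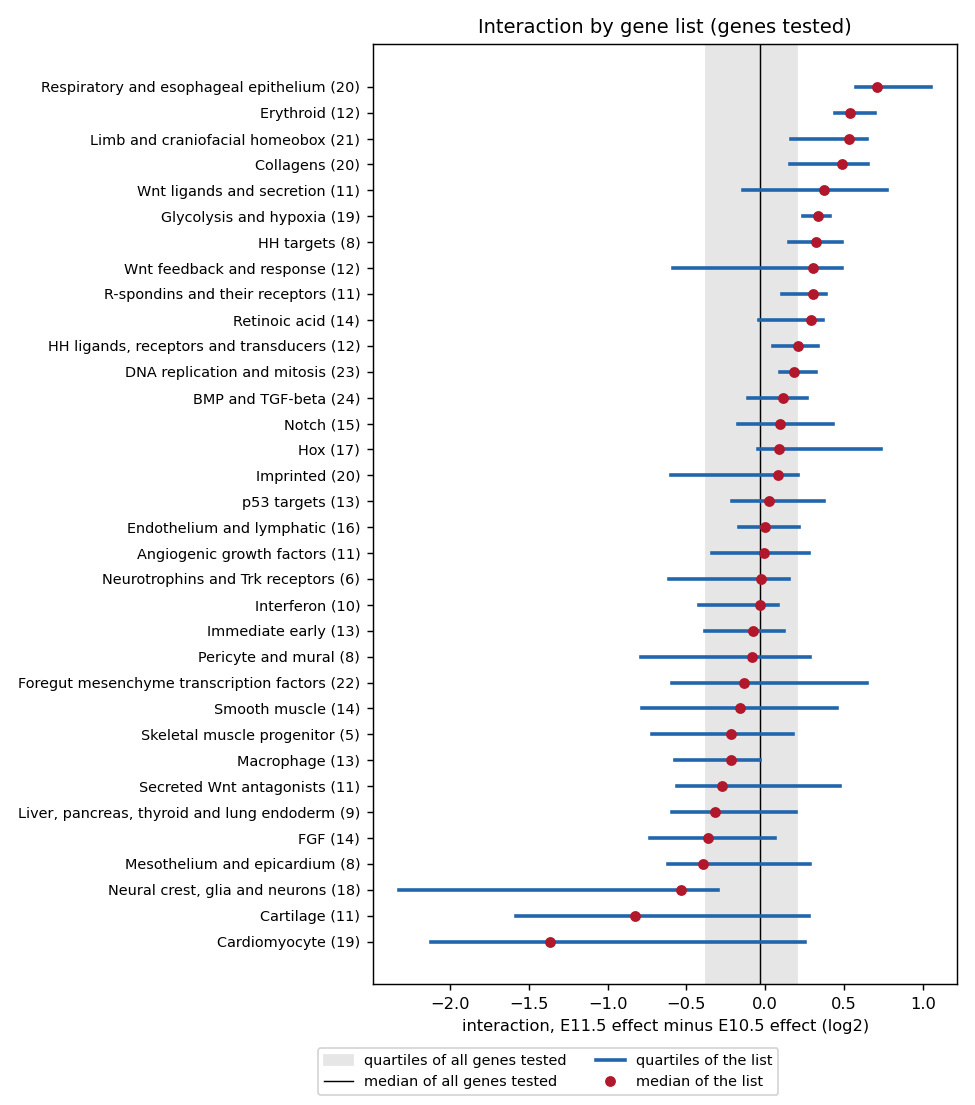
Median interaction (log2) of each gene list with a line for its quartiles, beside the median over all genes tested (vertical line at -0.03) and their quartiles (grey band from -0.38 to 0.20). The epithelium (median 0.71), erythroid (0.54) and glycolysis (0.34) lists lie wholly to the right of the band. The medians of the mesothelium (-0.39), neural (-0.53), cartilage (-0.83) and cardiomyocyte (-1.36) lists lie to its left, with quartile lines that reach into the band or across it. The sex-linked list is not drawn.

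Epithelial genes of airway and esophagus were the list with the largest share of members that had a higher interaction at an unadjusted p under 0.05. All 20 tested members had an interaction above 0, 12 of them at an unadjusted p under 0.05, with a median of 0.71 and 0 called. In the stage comparisons, 17 of the 20 were called higher in mutants at E11.5 and 0 at E10.5, against 2.97% and 0.477% of all genes. *Epcam*, the pan-epithelial adhesion molecule, measured 57.6, 77.1, 58.7 and 55.5 CPM in E11.5 mutants, against 30.8, 32.95 and 32.6 CPM in E11.5 controls. It measured 90.6, 72.1 and 82.2 CPM in E10.5 mutants, against 53.4, 72.9 and 63.8 CPM in E10.5 controls. The E11.5 controls were the lowest group, with no overlap at E11.5 and overlap at E10.5. *Epcam* rose at E11.5 by 0.95 (adjusted p = 0.00222), its E10.5 difference was 0.37 (adjusted p = 0.241), and the interaction was 0.59 (standard error 0.190, adjusted p = 0.215).

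*Krt19*, a keratin of simple epithelium, measured 10.7, 18.6, 10.1 and 5.71 CPM in E11.5 mutants, against 3.83, 3.24 and 1.49 CPM in E11.5 controls. It measured 21.5, 15.8 and 18.1 CPM in E10.5 mutants, against 12.7, 16.8 and 11.51 CPM in E10.5 controls (interaction 1.56, standard error 0.496, adjusted p = 0.209). *Sox2*, the factor of esophageal and dorsal foregut endoderm, measured 12.99, 16.4, 7.88 and 8.05 CPM in E11.5 mutants, against 4.55, 2.46 and 4.41 CPM in E11.5 controls. It measured 14.8, 11.7 and 13.4 CPM in E10.5 mutants, against 8.05, 12.7 and 10.8 CPM in E10.5 controls (interaction 1.24, standard error 0.407, adjusted p = 0.217). *Foxa1*, a pioneer factor of endoderm, had an interaction of 0.71 (standard error 0.281, adjusted p = 0.275). The E11.5 calls of *Krt19* and *Sox2* were lost without E11.5 control replicate 3 (adjusted p = 0.0612) and without E11.5 control replicate 2 (adjusted p = 0.0591). The summed level of the list was 506 to 796 CPM in E11.5 mutants, 253 to 349 CPM in E11.5 controls, 678 to 896 CPM in E10.5 mutants and 555 to 733 CPM in E10.5 controls. What the share of epithelium in each dissection contributed to the interactions of other genes was not tested.

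Collagen genes also leaned upward. Of 20 tested, 11 had a higher and 1 a lower interaction at an unadjusted p under 0.05, 0 were called, and the median was 0.49. At E11.5, 11 were called higher in mutants (2.97% of all genes), and at E10.5, 3 were (0.477% of all genes). *Col6a3*, a chain of microfibrillar collagen VI, measured 32.2, 30.3, 18.5 and 26.4 CPM in E11.5 mutants, against 8.86, 4.58 and 3.13 CPM in E11.5 controls. It measured 2.74, 1.81 and 3.84 CPM in E10.5 mutants, against 1.66, 2.79 and 1.11 CPM in E10.5 controls, with overlap only at E10.5 (interaction 1.68, standard error 0.552, adjusted p = 0.217). *Col4a5*, a basement membrane chain, had an interaction of 0.69 (standard error 0.211, adjusted p = 0.20002), or 0.84 (adjusted p = 0.117) with sex as a covariate, the gene being X-linked. *Col8a1*, a short-chain collagen of vessel walls, was the exception at -1.40 (standard error 0.315, adjusted p = 0.142), having risen at E10.5 by 1.56 (adjusted p = 0.0169), a call lost without any one of the E10.5 controls or E10.5 mutant replicate 2 (adjusted p up to 0.0866).

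Of 19 genes of glycolysis and hypoxia, 17 lay above 0, 6 had a higher and 0 a lower interaction at an unadjusted p under 0.05, 0 were called, and the median was 0.34. At E11.5 mutants were called higher for 9 of them (2.97% of all genes) and at E10.5 for 1 (0.477% of all genes). *Ldha*, which encodes lactate dehydrogenase A, rose at E11.5 by 0.66 (adjusted p = 0.00549) against an E10.5 difference of 0.10 (adjusted p = 0.756), for an interaction of 0.56 (standard error 0.156, adjusted p = 0.184). *Pfkl*, a phosphofructokinase, rose at E11.5 by 0.59 (adjusted p = 0.00549) and had an interaction of 0.45 (standard error 0.139, adjusted p = 0.201). Of 23 genes of DNA replication and mitosis, 7 had a higher and 0 a lower interaction at an unadjusted p under 0.05, with a median of 0.18 and 0 called. *Rrm2*, a ribonucleotide reductase subunit, fell at E10.5 by 0.62 (adjusted p = 0.0267), a call lost without any single E10.5 library (adjusted p up to 0.108), and had an interaction of 0.47 (standard error 0.155, adjusted p = 0.217). *Mcm4*, a subunit of the replicative helicase, had one of 0.33 (standard error 0.101, adjusted p = 0.206).

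Of 14 smooth muscle genes, 3 had a higher and 0 a lower interaction at an unadjusted p under 0.05, 5 lay above 0 and 9 below, 0 were called, and the median was -0.16. *Myh11*, the smooth muscle myosin heavy chain, measured 56.7, 54.2, 36.4 and 29.8 CPM in E11.5 mutants, against 21.1, 26.1 and 16.6 CPM in E11.5 controls. It measured 0.175, 1.94 and 0.287 CPM in E10.5 mutants, against 2.25, 2.01 and 2.59 CPM in E10.5 controls. Mutants stood above controls at E11.5 and below them at E10.5 in every library, with E10.5 mutant replicate 2 nearest to its controls. The interaction of *Myh11* was 2.62 (standard error 0.665, adjusted p = 0.169), and it was called without E10.5 mutant replicate 2. *Actg2*, an actin of visceral smooth muscle, had an interaction of 1.93 (standard error 0.760, adjusted p = 0.274), and *Mylk*, the kinase that triggers contraction, one of 0.83 (standard error 0.194, adjusted p = 0.150). These 3 were the members with a higher interaction at an unadjusted p under 0.05, and none of the 9 below 0 is described. The summed level of the list was 639 CPM in E10.5 mutant replicate 2, against 192 and 151 CPM in E10.5 mutant replicates 1 and 3. That library also held the 2604 CPM of cardiomyocyte genes given below, and its part in the list's values was not tested.

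Markers of other tissues varied widely between libraries of a group. The summed level of 19 tested cardiomyocyte genes was 1002 to 5259 CPM in E11.5 mutants, 97.0 to 951 CPM in E11.5 controls, 165 to 2604 CPM in E10.5 mutants and 98.8 to 113 CPM in E10.5 controls, and 2 of the 19 had a lower interaction at an unadjusted p under 0.05 (median -1.36, which ranged from -2.36 to 0.70 with the settings). The 12 tested erythroid genes summed to 8797 to 31107 CPM in E11.5 mutants, 3335 to 21036 CPM in E11.5 controls, 12660 to 20438 CPM in E10.5 mutants and 1756 to 24302 CPM in E10.5 controls, and 0 of them had an unadjusted p under 0.05, with all 12 above 0 (median 0.54, which ranged from 0.0158 to 2.30 with the settings). The 13 macrophage genes summed to 78.0 to 127 CPM in E11.5 mutants, 57.6 to 68.0 CPM in E11.5 controls, 34.8 to 40.8 CPM in E10.5 mutants and 21.3 to 22.9 CPM in E10.5 controls. Mutants therefore stood above controls at both stages, and the macrophage list had 0 members at an unadjusted p under 0.05 in the interaction (median -0.22).

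Of 18 genes of neural crest, glia and neurons, 1 had a higher and 5 a lower interaction at an unadjusted p under 0.05, 15 lay below 0, and the median was -0.53, which ranged from -2.35 to 0.51 with the settings. *Tubb3*, the neuronal beta tubulin, measured 9.97, 8.2002, 6.75 and 6.82 CPM in E11.5 mutants, against 3.83, 11.4 and 13.1 CPM in E11.5 controls. It measured 3.38, 9.95 and 260.4 CPM in E10.5 mutants, against 8.76, 7.77 and 13.6 CPM in E10.5 controls, so that E10.5 mutant replicate 3 stood far above the other 12 libraries. *Stmn2*, a neuronal microtubule regulator, showed the same library at 134 CPM, with the other 12 between 2.04 and 11.4 CPM. The interaction was -3.44 for *Tubb3* (standard error 1.45, adjusted p = 0.302), which turns to 0.35 without that library, and -3.66 for *Stmn2* (standard error 1.41, adjusted p = 0.265), which becomes -0.0028 without it. *Rgs5*, the leading pericyte gene, was uneven in a different way, at 24.3, 20.2, 32.5 and 29.1 CPM in E11.5 mutants, against 339, 76.5 and 74.6 CPM in E11.5 controls. It measured 202, 749 and 88.9 CPM in E10.5 mutants, against 138, 236 and 86.95 CPM in E10.5 controls, with an interaction of -3.80 (standard error 0.949, adjusted p = 0.165). The E11.5 fall of *Rgs5* (adjusted p = 0.0390) was called in 5 of the 13 fits with 1 library left out, being lost without any E11.5 library or E10.5 control replicate 1 (adjusted p up to 0.116).

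The remaining lists held 0 called genes and few members at an unadjusted p under 0.05. There were 1 higher and 1 lower of 8 pericyte and mural genes (median -0.09), 0 higher and 1 lower of 5 skeletal muscle progenitor genes (-0.21), 1 higher and 0 lower of 16 endothelial genes (-0.004), and 0 higher and 1 lower of 11 angiogenic growth factor genes (-0.01). There were 0 higher and 2 lower of 6 neurotrophin and Trk receptor genes (median -0.03), 0 of 9 genes of liver, pancreas, thyroid and lung endoderm (-0.32), and 1 higher and 1 lower of 8 mesothelial and epicardial genes (-0.39). There were 2 higher and 0 lower of 13 p53 target genes (median 0.02) and 1 higher and 0 lower of 13 immediate early genes (-0.08). Of 5 sex-linked genes 0 were higher and 1 lower (median 0.97).

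Imprinted genes lay on both sides of 0, with 11 of 20 above 0, 0 higher and 4 lower at an unadjusted p under 0.05, and a median of 0.08. Both members named by their p, *Meg3* (-1.24, standard error 0.319, adjusted p = 0.170) and *Mirg* (-1.74, standard error 0.446, adjusted p = 0.170), are noncoding transcripts of the same maternally expressed cluster on chromosome 12.

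**Figure D5:**
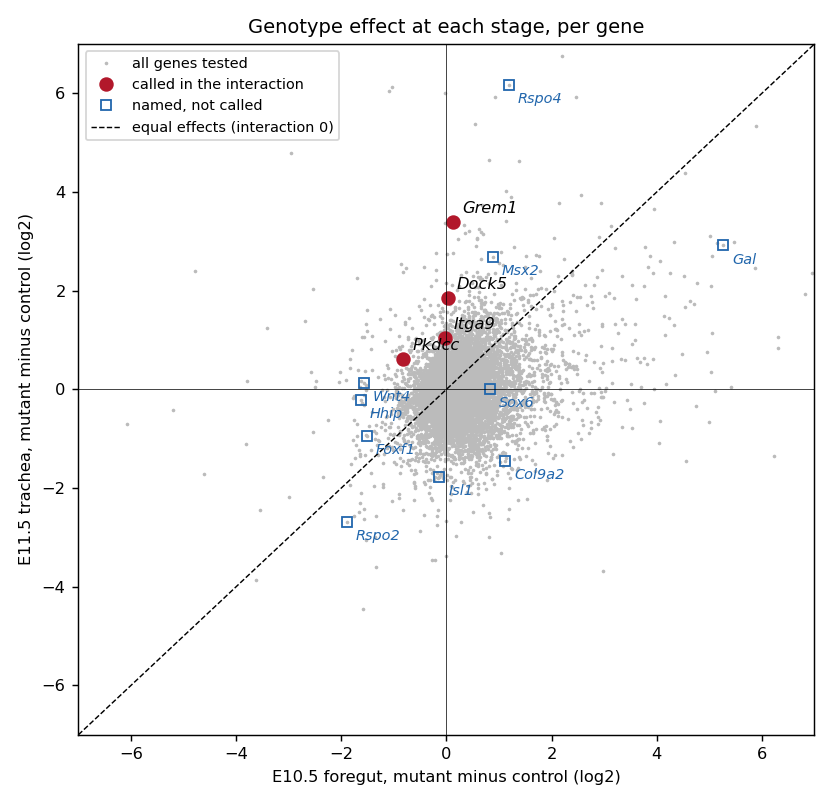
Log2 difference of mutant over control at E11.5 (vertical axis) against that at E10.5 (horizontal axis) for all 16132 genes tested, with a dashed line where the differences are equal and the interaction is 0. The genes called higher in the interaction lie above the line, at 0.62 against -0.82 for *Pkdcc* and at 3.38 against 0.13 for *Grem1*, and 7 genes beyond the axis limits are not drawn.

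The stages share no library, so their differences can be set side by side. Across the 16132 genes, Pearson's r between the E11.5 and the E10.5 difference was 0.235, and over 9906 genes with a mean log2 CPM of at least 3 it was 0.352. Genes are not independent replicates, and these values are descriptions. Mutant and control differed past the threshold at both stages for 39 of the 16132 genes, of which 32 were higher and 6 lower at both, the remaining gene being *Pkdcc*. The median difference of the 32 was 1.03 at E11.5 and 1.04 at E10.5, and that of the 6 was -1.64 at either stage. These genes were chosen for passing the threshold in the same direction at both stages, so similar medians follow in part from the choice. Their median interactions were -0.10 and -0.18. Of the 38, 7 had an unadjusted p under 0.05 in the interaction, *Twist1*, *Rspo2* and *Foxf1* among them. Over all 16132 genes, 6.66% had a higher and 7.56% a lower interaction at that threshold. A further 655 genes were called at E11.5 alone and 66 at E10.5 alone, but being called at a single stage is not a difference between stages, which was called for 4 genes.

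The extremes among the 38 were *Gal* and *Stard8*. *Gal*, which encodes the neuropeptide galanin, measured 56.4, 28.4, 59.6 and 51.1 CPM in E11.5 mutants, against 4.07, 9.72 and 5.54 CPM in E11.5 controls. It measured 8.46, 4.72 and 11.2 CPM in E10.5 mutants, against 0.237, 0 and 0.3696 CPM in E10.5 controls. *Gal* rose by 2.92 at E11.5 (adjusted p = 0.00142) and by 5.26 at E10.5 (adjusted p = 0.00301), where the controls were at or near 0, and the interaction was -2.34 (standard error 0.782, adjusted p = 0.221). *Stard8*, a protein with a lipid-binding START domain, measured 28.4, 35.7, 32.3 and 27.1 CPM in E11.5 mutants, against 8.46, 10.9 and 8.67 CPM in E11.5 controls. It measured 18.7, 18.8 and 18.3 CPM in E10.5 mutants, against 9.59, 11.51 and 12.99 CPM in E10.5 controls. *Stard8* rose by 1.72 at E11.5 (adjusted p = 6.55e-05) and by 0.71 at E10.5 (adjusted p = 0.0467), and the interaction was 1.01 (standard error 0.206, adjusted p = 0.141), or 0.97 (adjusted p = 0.117) with sex as a covariate, this gene being X-linked too. The E10.5 call was kept in 4 of the 13 fits with 1 library left out, those without E10.5 libraries all losing it, as did the fits without E11.5 control replicate 3 and without E11.5 mutant replicate 1 or 3 (adjusted p up to 0.248).

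A class of transcripts that the files name only by a sequence record, rather than by a gene symbol, moved apart from the rest. Among 1475 of them, 76.8% had an interaction below 0 and 20.6% a lower one at an unadjusted p under 0.05, against 51.2% and 6.24% of the other 14657 genes. The mean log2 CPM of these transcripts was 1.20 to 1.45 in E11.5 mutants, 1.62 to 1.69 in E11.5 controls, 1.07 to 1.47 in E10.5 mutants and 0.958 to 1.16 in E10.5 controls. Their part in the lower interactions of other genes was not tested. At E11.5 that mean did not overlap between mutants and controls, so a fit with it as a covariate cannot separate it from genotype at that stage. In that fit, 1 gene was called higher, *Pkdcc*, and 74 lower. Many of the lower ones with the smallest p were neuronal genes, among them *Ntng2*, *Stmn2* and *Tubb3*, which were highest in E10.5 mutant replicate 3. What that library contributed to the 74 was not tested.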

How the data were processed

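RNA of separate embryo dissections was amplified with a kit that does not mark strand. Per the labels and the study's methods, reads were trimmed (FastQC, BBDuk), aligned to mm10 with Bowtie2 and quantified with RSEM (version 1.3.0 in the submitters' processing notes) inside the CSBB pipeline. For the annotation, none of the sources used names a release. The authors deposited estimated counts and TPM per gene symbol, in a table per stage. The 32793 genes in both were joined by symbol and the estimated counts rounded. After edgeR's filterByExpr (minimum count 10), 16132 genes were fitted in R 4.3.3 with edgeR 4.0.16 (TMM factors, 4 group terms, quasi-likelihood test, two-sided), and p-values were adjusted by Benjamini-Hochberg over all of them. A gene was called at an adjusted p of at most 0.05. The standard error is the size of the log2 difference divided by the square root of F. The labels number the replicates but do not pair them, and p-values measure the spread between these samples. Depth, 9646701 to 17988461 counts per library, limits genes of a few counts.

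Alternatives used DESeq2 1.42.0, limma 3.58.1 (voom, and the deposited TPM on a log2 scale with a pseudocount of 1 or 0.1), other factors and filters, a replicate block, sex as a covariate, libraries left out and, chosen after seeing the data, protein-coding genes only, the level of record-named transcripts as a covariate and a pair of libraries left out. The steps were tested on simulated data. Lists and named genes were chosen with earlier results of these data known. Named were all called genes, the 8 in each direction with the next smallest p (1 of them, a transcript named only by a sequence record with an interaction of -1.70, is not printed by name), genes the study discusses, the targeted allele, the extremes among genes called at both stages, and up to 3 members of a list by p. A few others were named after their values were seen. Some genes are not reported here. Gene positions are from GENCODE M21 (GRCm38). Exons of a gene on the opposite strand overlap *Hhip*, *Foxf1*, *Foxf2*, *Gli1*, *Gli3*, *Wnt11*, *Notum*, *Ccnd1*, *Mylk*, *Twist2*, *Shox2*, *Col9a3*, *Etl4* and *Meg3*, so that reads of the partners cannot be told apart.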

Additional observations from a re-analysis of the deposited data

Results flagged for a closer look

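In 103 sets of 4 E11.5 mutant values that were tested for a sample far from the other 3, 5 were past the critical value, and chance passes about 1 in 20. *Epcam* was 77.1 CPM in replicate 2, against 55.5 to 58.7 CPM in the other 3. *Twist2* was 9.77 CPM in replicate 3, against 11.03 to 11.1 CPM in the other 3. *Slc25a27* was 8.05 CPM in replicate 4, against 5.42 to 5.80 CPM in the other 3. The mean log2 CPM of the cartilage list was 3.47 in replicate 3, against 3.70 to 3.72 in the other 3. The mean log2 CPM of the imprinted list was 7.56 in replicate 2, against 7.70 to 7.72 in the other 3.

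The effect of genotype differed between E11.5 and E10.5 by the interaction test for *Pkdcc* (1.45), *Itga9* (1.06), *Grem1* (3.25) and *Dock5* (1.81), the values being log2 differences of E11.5 minus E10.5.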

How the results depend on the processing

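The interaction kept its direction for each of the 4 called genes in every fit that tested it (*Grem1* was not tested with at least 10 counts in every library), and the calls did not. Higher and lower interaction calls numbered 8 and 2 with no filter on low counts, 160 and 117 with DESeq2, 68 and 116 with the likelihood ratio test, 2 and 0 with limma-voom, 6 and 6 on log2(TPM + 1), 3 and 2 on log2(TPM + 0.1), 4 and 1 with library size alone, 3 and 1 with sex as a covariate, 1 and 74 with the record-named covariate, 276 and 72 without both mutant replicates 2 and E11.5 control 1, 7 and 8 without E10.5 mutant 3 and E11.5 mutant 4, 9 and 3 at an adjusted p of at most 0.1, and 1075 and 1219 at an unadjusted p under 0.05. With 1 library left out they ranged over 0 to 459 and 0 to 174.

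Calls at E11.5 (higher and lower, of 479 and 215) numbered 316 and 346 with library size alone, 892 and 539 with DESeq2, 763 and 473 with the likelihood ratio test, 285 and 104 with voom weights, 230 and 353 on log2(TPM + 1), 267 and 105 without both mutant replicates 2, 1038 and 421 without these and E11.5 control 1, 25 and 18 with the record-named covariate, 161 and 103 with a log2 difference of at least 1, 955 and 631 at an adjusted p of at most 0.1 and 2044 and 1639 at an unadjusted p under 0.05. On log2(TPM + 0.1), 188 were higher. With 1 library left out they ranged over 99 to 1329 and 35 to 706. Calls at E10.5 (of 77 and 28) numbered 303 and 217 with DESeq2, 309 and 100 with the likelihood ratio test, 151 and 124 with voom weights, 14 and 7 on log2(TPM + 1), 19 and 6 on log2(TPM + 0.1), 192 and 16 with the record-named covariate, 47 and 9 with a log2 difference of at least 1, 202 and 84 at an adjusted p of at most 0.1 and 1380 and 890 at an unadjusted p under 0.05. With no filter 124 were higher, and without both mutant replicates 2 and E11.5 control 1, 51 were lower. With 1 library left out they ranged over 2 to 101 and 2 to 49. The cause of these shifts was not tested. Those with the record-named covariate cannot be told apart from genotype at E11.5, where its values did not overlap between mutants and controls.

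With the replicate number as a block, 0 genes were called in the interaction (2334 at an unadjusted p under 0.05), 255 higher and 129 lower at E11.5, and 19 higher and 7 lower at E10.5. The labels do not pair the samples by these numbers. Same-numbered mutants and controls correlated at -0.089, -0.085 and 0.101 at E11.5 and at 0.0762, 0.122 and 0.165 at E10.5. Those with different numbers correlated at -0.189 to 0.216 at E11.5 and at -0.142 to 0.0569 at E10.5. The same-numbered values were thus the highest at E10.5 but not at E11.5, and whether same-numbered samples were paired was not tested.

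Of 2097 recomputed values of named genes, 21 changed sign. *Foxf2* became -0.59 without E11.5 mutant replicate 2, -0.67 without both mutant replicates 2 and -0.74 with the record-named covariate, and ranged from -0.59 to 1.22 with 1 library left out. *Boc* became 0.0016 with that covariate. *Gli1* became -0.051 with upper-quartile factors, -0.056 with library size alone, -0.013 with at least 10 counts in every library, -0.18 on log2(TPM + 1), -0.19 on log2(TPM + 0.1), -0.0057 with sex, -0.12 without both mutant replicates 2 and E11.5 control 1, -0.026 among protein-coding genes and -0.12 to 0.18 with 1 library left out. *Tubb3* became 0.35 without E10.5 mutant replicate 3 and, when E11.5 mutant 4 was left out too, 0.41, where *Stmn2* became 0.18. With 1 library left out, *Tubb3* ranged from -3.998 to 0.35.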
